A study of Homo sapiens with 12 samples.

Results

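The genes described here are 10 components of the Notch pathway, taken by symbol from a table of 60591 genes: the receptors NOTCH1, NOTCH2 and NOTCH3, the ligands JAG1, JAG2, DLL1 and DLL4, and the transcriptional targets HES1, HEY1 and NRARP. They were measured by poly(A) RNA-seq in 12 libraries from PC9 and H1650, 2 human non-small cell lung cancer (NSCLC) lines labelled as wild-type in genotype, each of which is known to carry an activating EGFR deletion. Each line was sampled in 3 groups of 2 replicates: 0.1% DMSO at 0 h (T0), 10 µM erlotinib for 36 h and 0.1 µM osimertinib for 36 h. Erlotinib is a reversible and osimertinib a covalent inhibitor of the EGFR kinase. The drugs were added to adherent cultures, and at the endpoint the trypsinized cells were counted, pelleted and lysed, so that only cells recovered at harvest contributed RNA. No DMSO library at 36 h was analysed here, so that drug and 36 h of further culture cannot be told apart in any comparison with T0.

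Notch receptors are single-pass membrane proteins that are activated by ligands of the Jagged and Delta-like families on a neighbouring cell. Ligand endocytosis pulls on the receptor, an ADAM protease and then γ-secretase cleave it, and the released intracellular domain enters the nucleus, where it binds RBPJ and a Mastermind co-activator to turn on targets such as the repressors HES1 and HEY1 and the feedback inhibitor NRARP. In the airway epithelium the pathway is known for choosing secretory over ciliated fates, and HES1 for repressing the neuroendocrine program.

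The proximal promoters of HES1 and NRARP are shown because these targets moved in opposite directions in PC9. The motif searched was GTGGGAA, the core bound by RBPJ, and its shorter form TGGGAA, which lies within it, on both strands of the 250 bases before each RefSeq start site (GRCh38.p14). Capitals mark matches to either form. The HES1 window is chr3:194135898-194136147 on the plus strand and the NRARP window is chr9:137302272-137302521 on the minus strand, both printed 5′ to 3′ in the direction of the gene.
HES1: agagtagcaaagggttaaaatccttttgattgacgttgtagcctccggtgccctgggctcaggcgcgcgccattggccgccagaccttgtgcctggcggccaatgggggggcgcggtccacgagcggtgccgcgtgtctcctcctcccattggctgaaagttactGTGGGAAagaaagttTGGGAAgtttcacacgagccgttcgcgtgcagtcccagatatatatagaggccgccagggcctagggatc
NRARP: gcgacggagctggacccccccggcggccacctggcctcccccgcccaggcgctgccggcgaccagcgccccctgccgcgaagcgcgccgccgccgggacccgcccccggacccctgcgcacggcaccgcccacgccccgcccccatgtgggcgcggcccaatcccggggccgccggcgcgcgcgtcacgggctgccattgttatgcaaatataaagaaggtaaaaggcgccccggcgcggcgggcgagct
HES1 held GTGGGAA at bases 85 to 79 before its start, and TGGGAA within it and again at bases 70 to 65. NRARP held neither form in this window. Of 35116 RefSeq promoter windows of the same length, 5.43% held GTGGGAA and 20.8% held TGGGAA, and of the 8 Notch genes with an entry only HES1 held either. DLL1 and HEY1 had no entry. Sites outside these windows were not searched, and a link between the motifs and the changes in PC9 was not tested.

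The libraries held 17961765 to 26346187 counted reads (median 21581420.5), and 3 reads, used as the limit for a count of 0, corresponded to between 0.116 and 0.168 CPM, the depth-scaled read count. CPM were scaled by the trimmed mean of M-values (TMM), and changes were tested with edgeR's quasi-likelihood test over 19108 genes. A gene was called when its p adjusted by the Benjamini-Hochberg method over all tested genes was under 0.05. The labels do not say whether replicates came from separate cultures, so that p-values measure the spread between these libraries. All 5 epithelial markers were above 1 CPM in every group, with sums between 5355 and 10628 CPM per library, and the 6 neuroendocrine markers summed to between 1.21 and 5.93 CPM. The 7 markers of immune, endothelial and stromal cells summed to between 11.2 and 27.9 CPM in 5 groups and to between 42.5 and 49.7 CPM in PC9 after osimertinib. Of these, COL1A1, a collagen chain, had 214 to 968 reads per library, the leukocyte markers PTPRC and CD3E at most 5, and the neuroendocrine factor NEUROD1 had 0 reads in every library. A list of 8 transcripts downstream of EGFR and ERK summed to between 1414 and 1452 CPM in PC9 at T0, 217 and 220 CPM after erlotinib, and 224 and 233 CPM after osimertinib. In H1650 the same sum was 344 to 353 CPM at T0, 393 to 394 CPM after erlotinib and 264 to 265 CPM after osimertinib. CCND1 was the largest part of the sum in every group, at a mean of 732 CPM in PC9 and 213 CPM in H1650 at T0. By gene, all 8 were called lower with each drug in PC9 (median log2 −4.71 and −4.81), beside 29.1% and 28.7% of all tested genes. In H1650, 4 were called higher and 1 lower after erlotinib and 3 lower after osimertinib, beside 36.5% and 35.7% of all tested genes called. The part that this output, or the marker sums, had in the changes of Notch genes was not tested.

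Before drug, both lines expressed the 3 receptors, both Jagged ligands and HES1, at levels that differed. At T0, 9 of the 10 genes were called between H1650 and PC9, 5 higher and 4 lower in H1650, against 69.6% of all tested genes (35.8% higher and 33.8% lower). The lines thus differed at most genes measured, and the count for the Notch genes has to be read against that. Of the 5, DLL1 and DLL4 had enough reads to be tested only through H1650. Their direction was thus nearly fixed in advance, and they add little to the count. NOTCH1, NOTCH2, JAG1 and NRARP were higher in PC9, and NOTCH3, JAG2, HES1, DLL1 and DLL4 in H1650.

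Levels can be set side by side between genes only per length, here as CPM per kb of the length listed for each gene in the count table. Those lengths are longer than the GENCODE 29 exon bases for NRARP (2641 against 1770), HEY1 (5487 against 3232), DLL1 (3819 against 3226), NOTCH2 (19930 against 16807) and NOTCH1 (10639 against 10377), which matters for comparisons between genes but not between samples. In PC9 at T0, HES1 was the highest, at 22.1 ± 0.946 CPM per kb (SD, n = 2), followed by NOTCH3 at 16.4 ± 0.552, NRARP at 15.6 ± 1.74, JAG1 at 14.1 ± 0.389, NOTCH2 at 12.4 ± 0.991 and NOTCH1 at 10.97 ± 0.539 CPM per kb. The libraries of NOTCH3 and NRARP overlapped, while those of the other neighbours in this order did not. With the exon bases as length, an alternative chosen after seeing the data, NRARP came first at 23.3 ± 2.60 CPM per kb and overlapped HES1 at 22.0 ± 0.945, and NOTCH2 at 14.7 ± 1.18 overlapped JAG1. JAG2 followed at 5.24 ± 0.0176 CPM per kb, and HEY1, DLL1 and DLL4 were under 0.1 CPM per kb. In H1650 at T0, the order was HES1 at 30.5 ± 0.554, NOTCH3 at 22.6 ± 2.31, JAG2 at 16.7 ± 1.76, NOTCH2 at 10.2 ± 0.0937, JAG1 at 7.63 ± 0.105 and NOTCH1 at 4.43 ± 0.567 CPM per kb, with no overlap between neighbours and the same order with the exon bases. NRARP was at 0.693 ± 0.0317 CPM per kb there, next to DLL1 at 0.602 ± 0.0915, with DLL4 and HEY1 lower still. Of the summed per-length level of the 3 receptors, NOTCH3 made up 41.2% ± 1.28 in PC9 and 60.6% ± 1.37 in H1650 (SD, n = 2), and NOTCH1 made up 27.6% ± 1.28 and 11.9% ± 0.576. NOTCH2 made up a similar share in both, 31.2% ± 2.57 and 27.6% ± 1.94, and its libraries did not overlap between lines.

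**Figure D1:**
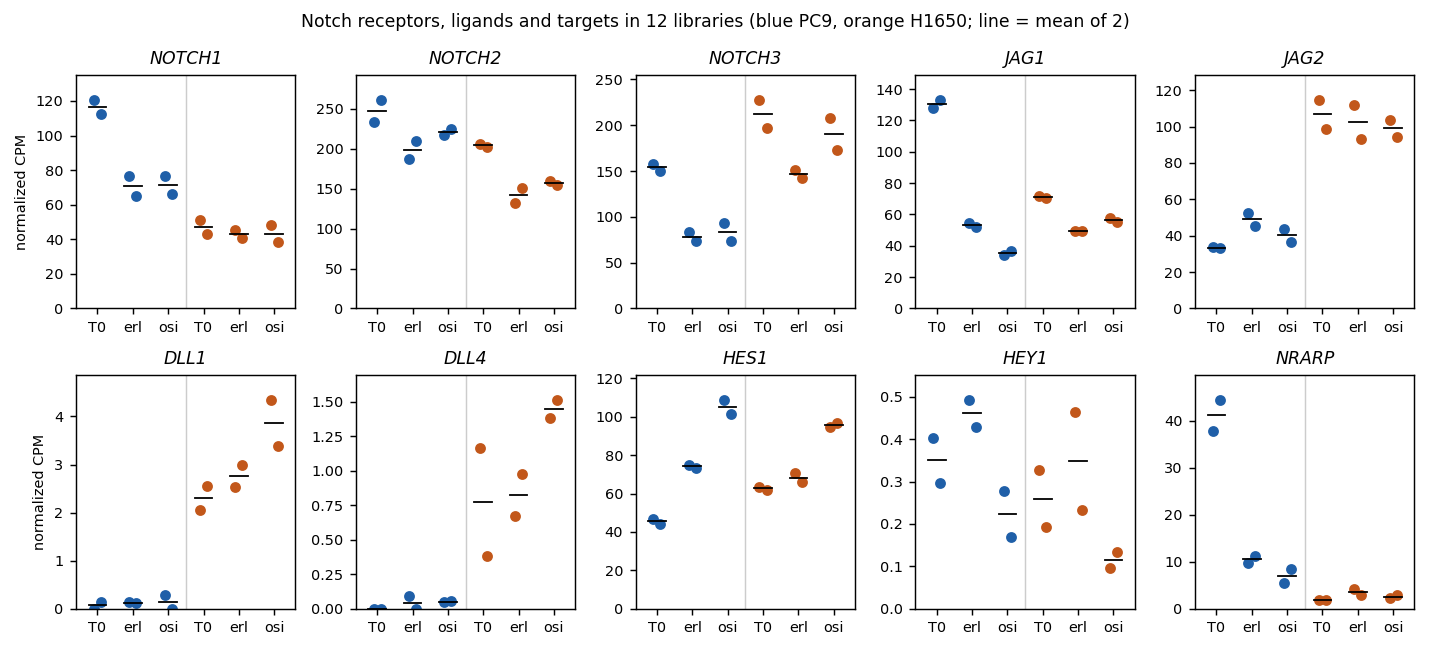
Normalized level (CPM, linear axis from 0, a scale of its own for each gene) of the 10 Notch genes in 12 libraries, by group (T0, erl for erlotinib, osi for osimertinib), with PC9 in blue, H1650 in orange and a line at the mean of 2 replicates. In PC9 all 4 drug-treated libraries lie below T0 for NRARP, JAG1, NOTCH1 and NOTCH3 and above it for HES1 and JAG2, while HEY1, DLL1 and DLL4 stay under 5 CPM in every library.

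Among the targets at T0, NRARP differed most. It encodes a small ankyrin-repeat protein that binds the Notch nuclear complex and limits its output. The PC9 T0 libraries had 37.9 and 44.4 CPM and the H1650 T0 libraries 1.77 and 1.89 CPM, so that the groups lay far apart. Its level was 22.4-fold lower in H1650 (log2 fold change −4.48, SE 0.20, adjusted p = 2.62e-17). HES1, a basic helix-loop-helix repressor, was at 46.8 and 44.1 CPM in PC9 and 63.6 and 62.0 CPM in H1650, a difference of 0.47 (SE 0.08, adjusted p = 8.5e-06) on the log2 scale and opposite in direction to that of NRARP. HEY1, a related repressor, had 2 to 11 reads in each of the 12 libraries and was called in none of the 9 comparisons.

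The ligands split by line. JAG1 was at 128 and 133 CPM in PC9 and 71.6 and 70.3 CPM in H1650 at T0, 1.84-fold lower in H1650 (log2 −0.88, SE 0.08, adjusted p = 3.54e-11). JAG2 showed the reverse, with 33.6 and 33.4 CPM in PC9 and 115 and 98.9 CPM in H1650, 3.19-fold higher in H1650 (log2 1.67, SE 0.10, adjusted p = 4.15e-14). For neither ligand did the lines overlap. DLL1 had 0 and 3 reads in the PC9 T0 libraries and 44 and 66 in H1650. The depth-scaled ratio was 31.0, with an exact 95% interval of 10.35 to 153 that covers counting error only. DLL4 had 0 reads in both PC9 T0 libraries and 25 and 10 in H1650, which is at least 5.19-fold higher against a limit of 3 reads in each PC9 library. The H1650 levels were themselves low, 2.30 ± 0.35 CPM for DLL1 and 0.776 ± 0.552 CPM for DLL4 (SD, n = 2).

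Of the receptors, NOTCH1 was at 121 and 113 CPM in PC9 and 51.4 and 42.8 CPM in H1650 at T0, 2.48-fold lower in H1650 (log2 −1.31, SE 0.11, adjusted p = 1.28e-11). NOTCH3 was at 158 and 151 CPM in PC9 and 228 and 197 CPM in H1650, 1.38-fold higher there (log2 0.46, SE 0.10, adjusted p = 0.00013). The libraries of the lines did not overlap for either gene. NOTCH2 was at 234 and 262 CPM in PC9 and 206 and 203 CPM in H1650. The log2 difference of −0.28 (SE 0.08) was small but called (adjusted p = 0.0024), and it was not called without the second PC9 T0 library (log2 −0.20, adjusted p = 0.081). NOTCH2 has near-identical partial copies on the same chromosome. Of these, NOTCH2NLB had 0 reads in every library. NOTCH2NLA and NOTCH2NLC had at most 7 and 11 reads where NOTCH2 had 2567 to 5364. Adding those reads to NOTCH2 could move it little. How reads that fit both NOTCH2 and a copy were counted is not given in the sources used here, and these counts cannot show it.

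In PC9 at 36 h, NRARP, JAG1, NOTCH1 and NOTCH3 were lower than at T0 with both drugs, and HES1 and JAG2 were higher. After erlotinib 7 of the 10 genes were called, 2 higher (JAG2 and HES1) and 5 lower (NOTCH1, NOTCH2, NOTCH3, JAG1 and NRARP), against 61.8% of all tested genes (32.7% higher and 29.1% lower). After osimertinib 6 were called, 2 higher (JAG2 and HES1) and 4 lower (NOTCH1, NOTCH3, JAG1 and NRARP), against 61.4% (32.7% higher and 28.7% lower). These counts are close to the background in total. The median log2 fold change over the 10 genes was 0.03 after erlotinib and −0.39 after osimertinib, values that include fits to the few reads of DLL1, DLL4 and HEY1. Without those 3 genes it was −0.72 and −0.71, beside 0.07 and 0.06 over all tested genes. Both comparisons share the T0 libraries. In bulk RNA, a lower level in every cell and fewer cells expressing a gene cannot be told apart.

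NRARP had the largest fall of the Notch genes called in PC9. From 37.9 and 44.4 CPM at T0 it went to 9.72 and 11.3 CPM after erlotinib and 5.50 and 8.47 CPM after osimertinib. No treated library came near T0. The falls were 3.90-fold (log2 −1.97, SE 0.16, adjusted p = 1.58e-11) and 5.95-fold (log2 −2.57, SE 0.17, adjusted p = 2.01e-13).

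HES1 moved the other way. Its levels were 46.8 and 44.1 CPM at T0, 74.9 and 73.5 CPM after erlotinib and 109 and 101 CPM after osimertinib, so that the 3 groups did not overlap. The rises were 1.63-fold (log2 0.71, SE 0.08, adjusted p = 8.94e-09) and 2.31-fold (log2 1.21, SE 0.08, adjusted p = 1.37e-13). Within each library, which removes the scaling between libraries, the per-length ratio of HES1 to NRARP was 1.59 and 1.27 at T0, 9.89 and 8.33 after erlotinib, and 25.4 and 15.3 after osimertinib. With the exon bases as length it was 1.06 and 0.852, then 6.62 and 5.57, then 16.97 and 10.3. The 2 targets thus went from similar levels to a large excess of HES1.

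JAG1 fell and JAG2 rose in PC9. JAG1, the Jagged ligand with the higher level at T0, went from 128 and 133 CPM to 54.2 and 51.7 CPM after erlotinib and 34.2 and 36.5 CPM after osimertinib. The 3 groups stood apart, with falls of 2.47-fold (log2 −1.30, SE 0.08, adjusted p = 1.48e-14) and 3.70-fold (log2 −1.89, SE 0.08, adjusted p = 8.9e-18). JAG2 went from 33.6 and 33.4 CPM to 52.5 and 45.4 CPM after erlotinib (log2 0.55, SE 0.11, adjusted p = 6.24e-05) and to 43.9 and 36.8 CPM after osimertinib (log2 0.27, SE 0.11, adjusted p = 0.0318). All treated libraries lay above T0, but the osimertinib call was lost with DESeq2 (adjusted p = 0.0795), without a filter on low counts (0.134), with each line fitted alone (0.0768), without either T0 library (0.0985 and 0.106) and without the first osimertinib library (log2 0.13, adjusted p = 0.415). The per-length ratio of JAG1 to JAG2 within a library was 2.63 and 2.74 at T0, 0.710 and 0.784 after erlotinib, and 0.535 and 0.683 after osimertinib. JAG1 was therefore the higher ligand before drug and JAG2 the higher ligand in all 4 treated libraries. Part of each ligand's exon sequence is shared with another annotated gene, 79 bases of JAG1 with an antisense RNA and 469 bases of JAG2 with a processed transcript on the same strand, and whether counting used strand is not given in the sources used here. DLL1 had 0 to 6 reads and DLL4 0 to 2 reads in each of the 6 PC9 libraries, too few to compare.

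**Figure D2:**
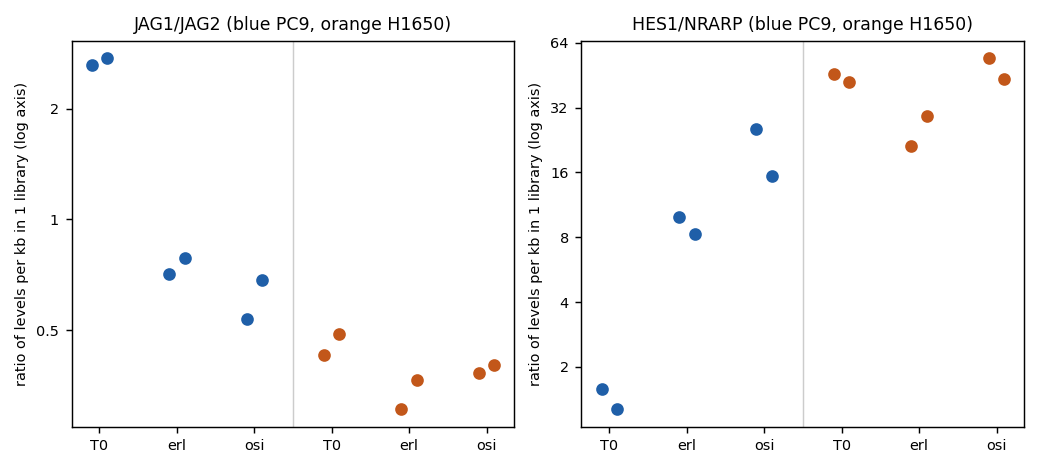
Ratio of the per-length levels of JAG1 to JAG2 (left) and HES1 to NRARP (right) within each of 12 libraries on a log axis, by group, with PC9 in blue and H1650 in orange; each point is 1 library. In PC9 the JAG1 to JAG2 ratio goes from above 2.6 at T0 to below 0.79 in all treated libraries, and the HES1 to NRARP ratio from at most 1.59 to at least 8.33; in H1650 both ratios stay on the same side of 1 in every library.

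The receptors fell unequally in PC9. NOTCH3 went from 158 and 151 CPM to 83.1 and 73.6 CPM after erlotinib (log2 −0.98, SE 0.10, adjusted p = 1.59e-09) and 93.6 and 73.8 CPM after osimertinib (log2 −0.88, SE 0.10, adjusted p = 1.23e-08). NOTCH1 went from 121 and 113 CPM to 76.8 and 64.8 CPM (log2 −0.72, SE 0.10, adjusted p = 7.71e-07) and 76.3 and 66.3 CPM (log2 −0.71, SE 0.10, adjusted p = 1.12e-06). For both receptors every treated library was below every T0 library, and the treatments overlapped. NOTCH2 went from 234 and 262 CPM to 187 and 209 CPM after erlotinib (log2 −0.32, SE 0.08, adjusted p = 0.000729), and stood at 218 and 225 CPM after osimertinib (log2 −0.16, SE 0.08, adjusted p = 0.0696, not called). The osimertinib value of NOTCH2 was called under 6 alternatives, with an adjusted p between 0.0028 and 0.0417. As a share of the 3 receptors per length, NOTCH2 was 31.2% ± 2.57 at T0, 40.0% ± 4.36 after erlotinib and 41.7% ± 3.88 after osimertinib, and NOTCH3 was 41.2% ± 1.28, 33.4% ± 1.91 and 33.2% ± 3.17 (SD, n = 2). NOTCH2 was the highest receptor per length in all 4 treated PC9 libraries, and NOTCH3 was in both T0 libraries, with either set of lengths.

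**Figure D3:**
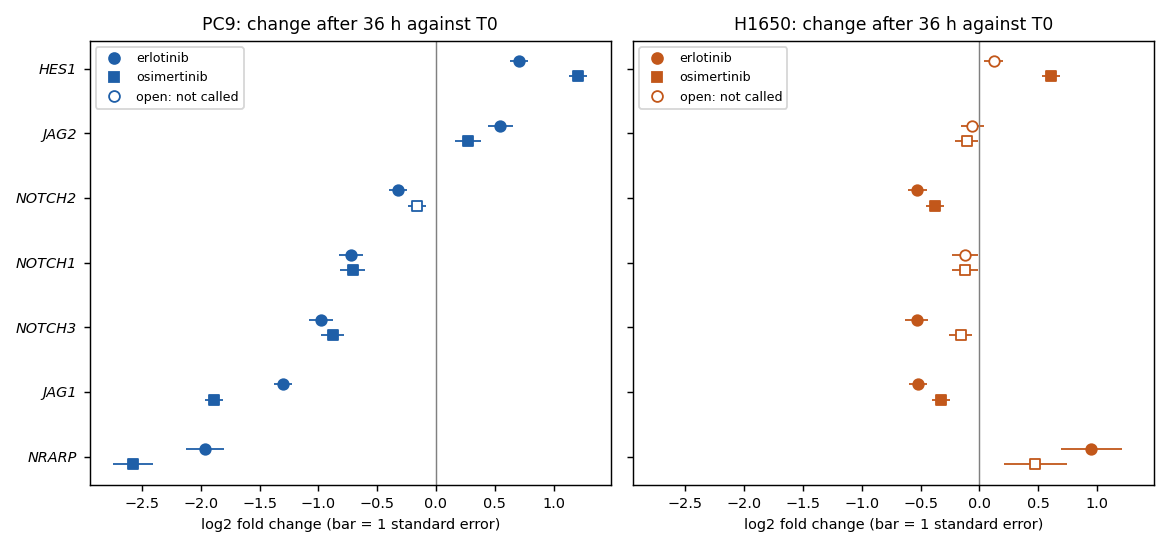
Log2 fold change against T0 of the 7 Notch genes with over 30 reads in every library, in PC9 (left, blue) and H1650 (right, orange), for erlotinib (circles) and osimertinib (squares); bars are 1 standard error and open symbols were not called. NRARP spans from −2.57 in PC9 after osimertinib to 0.95 in H1650 after erlotinib, and JAG1 is the only 1 of the 7 genes called lower in all 4 comparisons; NOTCH1, NOTCH2 and NOTCH3 lie below 0 in all 4 but were not called in each.

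In H1650, JAG1 and NOTCH2 fell with both drugs, NOTCH3 fell and NRARP rose after erlotinib, and HES1 rose after osimertinib. After erlotinib 4 of the 10 were called, 1 higher (NRARP) and 3 lower (NOTCH2, NOTCH3 and JAG1), against 36.5% of all tested genes (18% higher and 18.5% lower). After osimertinib 3 were called, 1 higher (HES1) and 2 lower (NOTCH2 and JAG1), against 35.7% (17.8% higher and 17.9% lower). Here too the counts were close to the background. The median log2 fold change over the 10 genes was 0.03 after erlotinib and −0.11 after osimertinib, beside 0.01 and 0 over all tested genes. With DLL1, DLL4 and HEY1 left out, it was −0.12 in both.

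JAG1 in H1650 went from 71.6 and 70.3 CPM to 49.6 and 49.3 CPM after erlotinib and 57.8 and 55.2 CPM after osimertinib. The groups did not overlap, and the falls were 1.43-fold (log2 −0.52, SE 0.08, adjusted p = 5.09e-06) and 1.26-fold (log2 −0.33, SE 0.08, adjusted p = 0.00124). JAG2 did not pass the test with either drug (log2 −0.06, SE 0.10, and −0.11, SE 0.10), and its H1650 libraries ranged from 93.0 to 115 CPM. DLL1 had 44 and 66 reads at T0, 49 and 64 after erlotinib and 91 and 76 after osimertinib. The osimertinib value (log2 0.74, SE 0.35, adjusted p = 0.106) was not called, though it was with each line fitted alone (adjusted p = 0.0275). DLL4 had 25 and 10 reads, then 13 and 21, then 29 and 34, with adjusted p over 0.05 in both comparisons.

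NOTCH2 was the receptor that fell with both drugs in H1650. It went from 206 and 203 CPM to 132 and 151 CPM after erlotinib (log2 −0.53, SE 0.08, adjusted p = 4.64e-06) and 159 and 155 CPM after osimertinib (log2 −0.38, SE 0.08, adjusted p = 0.000311). NOTCH3 fell after erlotinib, from 228 and 197 CPM to 152 and 142 CPM (log2 −0.53, SE 0.10, adjusted p = 7.21e-05). After osimertinib NOTCH3 was at 207 and 173 CPM, a range that overlaps T0 (log2 −0.16, SE 0.10, adjusted p = 0.211). NOTCH3 was higher in replicate 1 in 6 of 6 groups. With replicate number added to the edgeR fit, its osimertinib change was called (log2 −0.16, adjusted p = 0.0307). NOTCH1, at 38.3 to 51.4 CPM in all 6 H1650 libraries, gave −0.12 (SE 0.11) in both comparisons and was not called. NOTCH3 remained the highest receptor per length in all 6, at between 57.0% and 63.8% of the 3.

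Of the targets in H1650, HES1 passed the test after osimertinib, NRARP after erlotinib and HEY1 with neither. HES1 was at 63.6 and 62.0 CPM at T0, 70.7 and 65.9 CPM after erlotinib (log2 0.12, SE 0.08, adjusted p = 0.243) and 94.8 and 97.0 CPM after osimertinib (log2 0.61, SE 0.08, adjusted p = 3.29e-07). The osimertinib libraries stood above all others of this line. NRARP was at 1.77 and 1.89 CPM at T0, 4.28 and 2.89 CPM after erlotinib (log2 0.95, SE 0.26, adjusted p = 0.00397) and 2.24 and 2.85 CPM after osimertinib (log2 0.48, SE 0.27, adjusted p = 0.179). These are 38 to 83 reads per library, and without the first erlotinib library the NRARP call was lost (log2 0.65, adjusted p = 0.114). All 4 treated libraries were above T0, whereas in PC9 all 4 were below it.

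The difference between the lines in response was tested directly. For erlotinib, 6 of the 10 genes were called, 4 with a higher value in H1650 (NOTCH1, NOTCH3, JAG1 and NRARP) and 2 with a lower one (JAG2 and HES1), against 40.8% of all tested genes (21.1% and 19.8%). For osimertinib the same 6 genes were called in the same directions, against 41.9% (21.5% and 20.5%). The drugs share the T0 libraries, so that the second set is not a repeat of the first. For NRARP the log2 change in H1650 exceeded that in PC9 by 2.92 (SE 0.30, adjusted p = 5.17e-09) for erlotinib and 3.05 (SE 0.32, adjusted p = 6.86e-09) for osimertinib. For JAG1 the corresponding values were 0.78 (SE 0.11, adjusted p = 9.99e-07) and 1.56 (SE 0.11, adjusted p = 2.61e-12). HES1 rose less in H1650, by −0.59 (SE 0.11, adjusted p = 8.25e-05) and −0.60 (SE 0.11, adjusted p = 5.42e-05). NOTCH2 was not among the called genes, with differences of −0.21 (SE 0.11, adjusted p = 0.147) and −0.22 (SE 0.11, adjusted p = 0.123). With upper-quartile scaling both were called (−0.29, adjusted p = 0.0283, and −0.27, adjusted p = 0.0361). The NOTCH3 difference for erlotinib, 0.45 (SE 0.14, adjusted p = 0.0109), was lost without the second H1650 T0 library (adjusted p = 0.0658) or the second PC9 erlotinib library (0.0534). The JAG2 difference for osimertinib, −0.38 (SE 0.15, adjusted p = 0.0363), was lost with DESeq2 (adjusted p = 0.0689), without a filter (0.0716) and without 1 of 5 libraries: either PC9 T0 library (0.0809 and 0.0864), the first H1650 T0 library (0.205), the first PC9 osimertinib library (−0.24, 0.265) or the second H1650 osimertinib library (0.152).

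The 2 inhibitors were also set against each other at 36 h, at the doses given, which differ, so that drug and dose cannot be told apart. In PC9, 3 of the 10 genes were called, 1 higher after osimertinib (HES1) and 2 lower (JAG1 and NRARP), against 16.6% of all tested genes (10.1% higher and 6.41% lower). In H1650, 2 were called, both higher after osimertinib (NOTCH3 and HES1), against 8.75% (5.02% higher and 3.73% lower). HES1 was the gene called in both lines, at 0.50 (SE 0.08, adjusted p = 1.88e-05) in PC9 and 0.49 (SE 0.08, adjusted p = 6.38e-05) in H1650 on the log2 scale, and the osimertinib libraries were above the erlotinib libraries in each. JAG1 was lower after osimertinib in PC9 (−0.58, SE 0.08, adjusted p = 4.95e-06). In H1650 it was 0.19 (SE 0.08, adjusted p = 0.145). The NRARP difference in PC9 (−0.61, SE 0.18, adjusted p = 0.02) was lost with DESeq2 (adjusted p = 0.0567), without the first osimertinib library (log2 −0.32, adjusted p = 0.39) and without the second erlotinib library (0.143). The NOTCH3 difference in H1650 (0.37, SE 0.10, adjusted p = 0.0133) was lost without the first osimertinib library (log2 0.24, adjusted p = 0.299) and without the second erlotinib library (0.097). NOTCH1 was 0.01 (SE 0.11) in PC9 and 0.0016 (SE 0.11) in H1650, and neither was called.

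The rest of the pathway was read from 60 further genes listed by role, of which 58 passed the filter on low counts. In PC9, 40 were called after erlotinib (23 higher and 17 lower) and 40 after osimertinib (25 and 15), which is 69% of the 58 with each drug beside 61.8% and 61.4% of all tested genes. In H1650, 19 were called after erlotinib (11 higher and 8 lower) and 27 after osimertinib (19 and 8), and 42 differed between the lines at T0 (21 in each direction). These are 32.8% and 46.6% beside 36.5% and 35.7% of all tested genes for the drugs, and 72.4% beside 69.6% at T0. The counts by role below are descriptions of few genes, with no test of a group, and stand beside 32.7% higher and 29.1% (erlotinib) or 28.7% (osimertinib) lower over all tested genes in PC9, and 18% and 18.5% or 17.8% and 17.9% in H1650. The median log2 fold change over the 58 genes in PC9 was 0.15 for erlotinib and 0.10 for osimertinib, and in H1650 it was 0.04 for erlotinib and 0.17 for osimertinib. The count of 19 for erlotinib in H1650 went to 12 without the first erlotinib library.

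**Figure D4:**
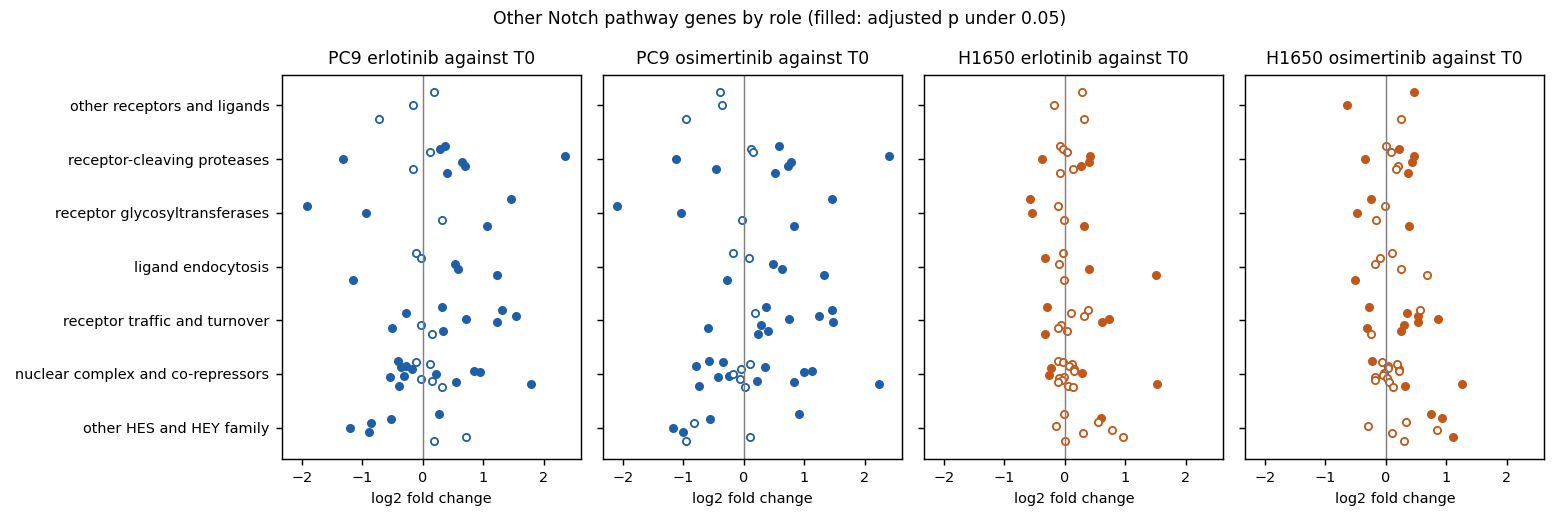
Log2 fold change against T0 of the other Notch pathway genes by role (rows), 1 panel for each of the 4 drug comparisons (PC9 blue, H1650 orange); filled points had an adjusted p under 0.05. Points spread over a wider range in PC9 than in H1650, and in PC9 most receptor traffic and turnover genes lie to the right; 1 gene with 3 reads or fewer in every library of a group is left out of each panel (HES5 in PC9, MAML3 in H1650).

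Of 9 receptor-cleaving proteases, 6 rose and 1 fell in PC9 after erlotinib, and 5 rose and 2 fell after osimertinib; in H1650, 3 rose and 1 fell, and 4 rose and 1 fell. APH1B, a γ-secretase subunit, rose from 2.30 ± 0.25 CPM to 11.8 ± 0.17 and 12.1 ± 1.3 CPM (SD, n = 2; log2 2.36, SE 0.18, adjusted p = 2.35e-12, and 2.40, SE 0.18, adjusted p = 1.91e-12). FURIN, which cuts the receptor during its maturation, fell from 200 ± 5.7 CPM to 79.7 ± 1.0 and 91.8 ± 3.5 CPM in PC9 (log2 −1.33, SE 0.08, adjusted p = 5.97e-14, and −1.12, SE 0.08, adjusted p = 1.9e-12). In H1650 FURIN fell by 0.38 and 0.34 on the log2 scale (adjusted p = 0.000391 and 0.00139). APH1B was already at 11.8 ± 1.2 CPM at T0 there and rose less, to 15.8 ± 1.5 and 16.4 ± 0.045 CPM (log2 0.41, SE 0.13, adjusted p = 0.0164, and 0.47, SE 0.13, adjusted p = 0.00617).

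The glycosyltransferases act on the receptor's extracellular repeats and tune which ligands it answers. POFUT1, which adds O-fucose, fell in PC9 from 158 ± 1.9 CPM to 82.6 ± 0.019 after erlotinib and 76.8 ± 1.6 after osimertinib (log2 −1.05, SE 0.07, adjusted p = 8.25e-13 for osimertinib). In H1650 it fell from 340 ± 0.18 CPM to 233 ± 19 and 244 ± 9.9 CPM (log2 −0.54, SE 0.07, adjusted p = 5.41e-07, and −0.48, SE 0.07, adjusted p = 3.76e-06). The Fringe enzymes LFNG, MFNG and RFNG extend that fucose, and MFNG and RFNG were picked out after their values were seen. LFNG rose in PC9 from 17.8 ± 2.9 CPM to 48.9 ± 2.7 and 49.2 ± 0.40 CPM (log2 1.46, SE 0.10, in each, adjusted p = 4.27e-13 and 4.24e-13). In H1650 LFNG fell from 50.5 ± 1.0 CPM to 34.1 ± 0.29 and 42.7 ± 0.23 CPM (log2 −0.57, SE 0.09, adjusted p = 1.88e-05, and −0.24, SE 0.09, adjusted p = 0.0399). The opposite directions differed by −2.02 (SE 0.14, adjusted p = 1.08e-12) and −1.70 (SE 0.14, adjusted p = 3.31e-11). MFNG fell in PC9, from 10.8 ± 0.51 CPM to 2.87 ± 1.1 and 2.48 ± 0.81 CPM (adjusted p = 3.39e-07 and 1.31e-07), while RFNG rose from 27.2 ± 1.7 CPM to 57.1 ± 6.3 and 48.1 ± 3.6 CPM (adjusted p = 4.43e-09 and 5.55e-07). RFNG also rose in H1650 with both drugs (log2 0.32, SE 0.12, adjusted p = 0.0349, and 0.38, SE 0.12, adjusted p = 0.0102). MFNG, at 1.30 ± 0.39 CPM in H1650 at T0, was called there with neither.

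Of the genes of ligand endocytosis, 3 rose and 1 fell of 6 with each drug in PC9. NEURL1B, a ubiquitin ligase of ligands, was the one that fell with each. It went from 26.5 ± 0.15 to 11.96 ± 0.20 CPM after erlotinib (log2 −1.15, SE 0.11, adjusted p = 1.08e-09) and 21.9 ± 2.6 CPM after osimertinib (log2 −0.27, SE 0.11, adjusted p = 0.0334). In H1650 it fell after osimertinib, from 26.2 ± 2.3 to 18.3 ± 0.73 CPM (log2 −0.52, SE 0.11, adjusted p = 0.00044), and was not called after erlotinib (log2 −0.02, SE 0.11, adjusted p = 0.919). Of 10 receptor traffic and turnover genes, 6 rose and 2 fell in PC9 after erlotinib and 8 rose and 1 fell after osimertinib, and in H1650 2 rose and 2 fell after erlotinib and 6 rose and 2 fell after osimertinib. DTX3 and DTX4 belong to the Deltex family of ubiquitin ligases. In PC9, DTX3 rose from 8.78 ± 0.62 to 25.7 ± 3.3 CPM after erlotinib (log2 1.55, SE 0.13, adjusted p = 5.84e-11) and DTX4 from 41.7 ± 1.9 to 116 ± 2.5 CPM after osimertinib (log2 1.48, SE 0.08, adjusted p = 8.63e-16). Each also rose there with the other drug, DTX3 by log2 1.24 (SE 0.14, adjusted p = 7.56e-09) and DTX4 by 1.23 (SE 0.08, adjusted p = 5.76e-14). In H1650, DTX3L and DTX4 rose after erlotinib, from 99.9 ± 8.3 to 166 ± 16 CPM and from 99.0 ± 1.5 to 151 ± 0.19 CPM (log2 0.73, SE 0.09, adjusted p = 9.7e-08, and 0.61, SE 0.07, adjusted p = 1.26e-07). Both rose there after osimertinib too (log2 0.86, SE 0.09, adjusted p = 5.57e-09, and 0.53, SE 0.07, adjusted p = 1.15e-06). DTX3L also rose in PC9 with both drugs (log2 0.72, SE 0.09, adjusted p = 4.8e-08, and 0.75, SE 0.09, adjusted p = 2.68e-08).

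In the nucleus, RBPJ itself fell in PC9 and was not called in H1650. It went from 108 ± 8.8 CPM to 74.5 ± 6.0 after erlotinib and 80.9 ± 3.2 after osimertinib in PC9 (log2 −0.54, SE 0.08, adjusted p = 1.46e-06, and −0.42, SE 0.08, adjusted p = 5.23e-05). In H1650 it was 68.1 ± 2.2, 67.8 ± 3.1 and 59.9 ± 0.62 CPM (adjusted p = 0.978 and 0.0856). The lines differed in this change for erlotinib (0.53, SE 0.12, adjusted p = 0.000423), and the difference for osimertinib missed the threshold (0.24, SE 0.12, adjusted p = 0.104). TLE2, a Groucho co-repressor that HES proteins recruit, rose with both drugs in both lines. Its level went from 8.19 ± 0.62 to 28.3 ± 1.1 and 38.7 ± 2.2 CPM in PC9 (log2 1.79, SE 0.11, adjusted p = 1.96e-14, and 2.24, SE 0.11, adjusted p = 8.97e-17) and from 31.3 ± 1.1 to 90.0 ± 4.4 and 75.1 ± 1.4 CPM in H1650 (log2 1.52, SE 0.09, adjusted p = 7.58e-14, and 1.26, SE 0.09, adjusted p = 4.72e-12). The other nuclear genes were split, 5 higher and 7 lower of all 17 in PC9 after erlotinib, 6 and 6 after osimertinib, and 2 and 2 and then 4 and 1 in H1650.

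Some nuclear partners were almost confined to 1 line. TLE4 had 5 and 1 reads in the PC9 T0 libraries and 1037 and 1064 in H1650, a ratio of 297 with an exact 95% counting interval of 136 to 809. MAML3, a Mastermind co-activator, had 222 and 235 reads in PC9 and 0 and 2 in H1650, a ratio of 269.9 with an interval of 74.3 to 2235. Its call after osimertinib in H1650 (adjusted p = 0.0267) rested on 6 and 7 reads against 0 and 2. KAT2B, an acetyltransferase, was at 6.21 ± 0.48 CPM in PC9 and 73.5 ± 1.0 CPM in H1650, and SNW1, an adaptor of the complex, at 176 ± 2.5 and 58.0 ± 2.8 CPM (log2 3.56, SE 0.11, adjusted p = 1.83e-21, and −1.60, SE 0.08, adjusted p = 2.48e-16).

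Of 8 tested genes of the wider HES and HEY family, 1 rose and 4 fell in PC9 after erlotinib and 1 rose and 3 fell after osimertinib. In H1650, 1 rose after erlotinib and 3 after osimertinib; the difference between the lines was not tested for the family as a whole. HES4, another HES repressor, fell in PC9 from 19.2 ± 0.29 CPM to 8.36 ± 2.0 and 8.48 ± 0.89 CPM (log2 −1.20, SE 0.20, adjusted p = 6.43e-06, and −1.17, SE 0.20, adjusted p = 1.26e-05), in the direction of NRARP and not of HES1. In H1650 HES4 was at 17.9 ± 6.3, 16.1 ± 4.5 and 14.5 ± 1.9 CPM and was not called. BHLHE41, a circadian repressor of the same structural family, fell in PC9 from 29.7 ± 0.33 to 20.7 ± 2.2 and 20.1 ± 0.072 CPM. In H1650 BHLHE41 was at 3.48 ± 0.23 CPM at T0 and 5.27 ± 0.52 CPM after erlotinib. It rose there to 6.57 ± 0.98 CPM after osimertinib (log2 0.92, SE 0.17, adjusted p = 7.04e-05). The remaining receptor and the divergent ligand were low. NOTCH4 had 10 to 45 reads in PC9 libraries and 0 to 13 in H1650, and no drug comparison called it (adjusted p between 0.142 and 0.865). DLL3, which inhibits Notch in the same cell, was at 3.47 ± 0.86 CPM in PC9 and 6.98 ± 0.81 CPM in H1650 at T0, and in H1650 it fell to 4.48 ± 0.22 CPM after osimertinib (log2 −0.64, SE 0.20, adjusted p = 0.0154).

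Genes whose profile over the 12 libraries was most like each Notch gene were found by Pearson's r of log2 levels, as a description with no test. The 12 libraries fall into 2 lines and 3 treatments, so that any gene sharing those differences scores highly. The nearest were SLC25A22 and RNF126 for NOTCH1, ALDH1B1 and VCL for NOTCH2, ARSB and MED24 for NOTCH3, RRP9 and POLR2D for JAG1, TOM1L2 and BMT2 for HES1, and STMN3 and AKAP1 for NRARP, with r between 0.9682 and 0.9892. DLL1 was nearest to ADARB1 and CP (r = 0.9925 and 0.9907) and DLL4 to SH3PXD2A and ABCB9 (0.9701 and 0.9681). HEY1, the gene with the fewest reads in H1650, had no neighbour above 0.8211 (SIAH2).

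By position on GRCh38 (GENCODE 29), NOTCH1 and NRARP both lie on chromosome 9, at chr9:136494433-136545786 and chr9:137300482-137302251 on the minus strand, and HES1 lies at chr3:194136145-194138732 on the plus strand. JAG1 is at chr20:10637684-10673999, JAG2 at chr14:105140981-105168824 and NOTCH3 at chr19:15159038-15200981, all on the minus strand. NRARP has a single exon of 1770 bases and HES1 2062 merged exon bases.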

How the data were processed

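Cells of 6 groups (n = 2 each) were profiled by poly(A) RNA-seq. The authors deposited raw read counts per gene from featureCounts, run within the DolphinNext pipeline, with exon lengths; the build named in the processing notes is GRCh38 and the authors' own test was DESeq2. The aligner's settings and strandedness are not given in the sources used here. From these counts, genes passing filterByExpr (19108 of 60591) were scaled by TMM and fitted with edgeR 4.0.16 (R 4.3.3) with 1 term per group over all 12 libraries, giving 9 contrasts; SE is the log2 fold change divided by the root of F. The prior degrees of freedom were 20.7 beside 6 residual. Counts were simulated for PC9 with erlotinib, with 200 of 19108 genes changed by 1 on the log2 scale, up or down. Of these 200 genes, 164 were called, with 17 false calls. Far fewer genes changed there than the 61.8% called in the data, so that this does not give the error rate of the calls above. Means ± SD are of 2 libraries, and intervals and limits cover counting error only. Pathway genes named are, for each comparison with T0 and between lines at T0, the 3 with the largest called change in each direction among those with a mean of at least 5 CPM over the 12 libraries, plus NOTCH4, DLL3, RBPJ and the NOTCH2 copies; others are named for their values. Likeness used log2(CPM + 0.5) of genes with a mean of at least 10 CPM. The genes most like JAG2 are not reported here. The 10 genes and all lists were chosen with earlier results of these data known. Alternatives were RLE and upper-quartile scaling, DESeq2 1.42.0, other filters, 1 fit per line, a replicate block, a threshold of 0.01, summing NOTCH2 with its copies, and leaving out each library. Replicate libraries differed by more than counting noise (chi-square per degree of freedom 3.78 to 6.56), so that none was counted as a duplicate.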

Additional observations from a re-analysis of the deposited data

Results flagged for a closer look

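The results that stood out were the 12 differences between the lines in drug response that passed the test of the difference itself (log2 change in H1650 minus log2 change in PC9). For erlotinib they were 0.60 for NOTCH1, 0.45 for NOTCH3, 0.78 for JAG1, −0.61 for JAG2, −0.59 for HES1 and 2.92 for NRARP. For osimertinib they were 0.59 for NOTCH1, 0.72 for NOTCH3, 1.56 for JAG1, −0.38 for JAG2, −0.60 for HES1 and 3.05 for NRARP. These are 6 of the 10 genes with each drug, beside 40.8% (erlotinib) and 41.9% (osimertinib) of all tested genes. The drugs share the T0 libraries. Under some alternatives the NOTCH3 call for erlotinib and the JAG2 call for osimertinib were lost. NRARP was below T0 in all 4 treated PC9 libraries and above it in all 4 treated H1650 libraries, although the H1650 value was not called after osimertinib (adjusted p = 0.179) and the erlotinib call was lost without 1 library (adjusted p = 0.114), from a T0 level of 41.2 ± 4.61 CPM in PC9 and 1.83 ± 0.0836 CPM in H1650 (SD, n = 2).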

How the results depend on the processing

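The values of single Notch genes under the alternatives leave out HEY1 throughout. They hold DLL1 and DLL4 only in the comparisons within H1650 and between the lines at T0. Of these 1398 values, 1333 kept their direction and side of the threshold, where a value with no adjusted p would count as kept. The call was lost by 27 and gained by 18, and 20 changed direction, none of which was called. Those that changed direction were NOTCH1 between the drugs in PC9 (−0.0049 with upper-quartile scaling, −0.0098 without a filter, −0.0071 with each line fitted alone) and in H1650 (−0.0038 with each line fitted alone, −0.0031 with the replicate block), and values that leave out 1 library. Over those, erlotinib in H1650 gave −0.25 to 0.0087 for NOTCH1, −0.20 to 0.062 for JAG2 and −0.49 to 1.09 for DLL4, and osimertinib gave −0.30 to 0.040 for NOTCH1 and −0.21 to 0.0023 for JAG2. Osimertinib against erlotinib gave −0.11 to 0.14 for NOTCH1 and −0.083 to 0.26 for NOTCH3 in PC9, and −0.17 to 0.16 for NOTCH1 and −0.17 to 0.088 for JAG2 in H1650. The count of Notch genes called between the drugs in H1650 went from 2 to 1 at a threshold of 0.01, and between 1 and 2 without single libraries. For the other pathway genes in H1650, a threshold of 0.01 took the count from 19 to 12 for erlotinib and from 27 to 16 for osimertinib. The counts of called Notch genes in the other 8 comparisons stayed within 1.5 times. Deviations of same-numbered replicates correlated between −0.0615 and 0.166 over 15 pairs of groups, so that the numbers were not taken to pair samples; with a replicate block, 5 values gained the call (NOTCH2 for osimertinib in PC9, −0.16, and between lines, −0.22; NOTCH3 for osimertinib in H1650, −0.16; between the drugs, JAG2 in PC9, −0.28, and JAG1 in H1650, 0.19) and none lost it. NOTCH1, NOTCH3 and JAG2 were higher in replicate 1 in 6 of 6 groups. The cause of these shifts was not tested. The depth limits HEY1, DLL1 and DLL4 in PC9, at 0 to 11 reads.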
